A study of Mus musculus with 5 samples.

Results

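*Tom1* (target of myb1) and 8 genes of the endosomal machinery that it works with were followed in olfactory sensory neurons (OSNs) that express the odorant receptor gene *Olfr151*, 9 genes of the 55411 in the count tables. *Tom1* was chosen by its decrease after odorant exposure in these same libraries, so its own difference is given as a description, without a test. The other 8 genes were selected on function, though with earlier results of these data known. They are the relatives *Tom1l1* and *Tom1l2*, the TOM1-binding protein gene *Tollip* and the motor gene *Myo6*. ESCRT-0 is represented by *Hgs*, *Stam* and *Stam2*, and ESCRT-I by *Tsg101*. The question was whether the lower *Tom1* level was shared by its partners. *Tom1* transcripts were at 0.332 times the control level (95% interval 0.222 to 0.497). None of the 8 partners passed the test in either direction, where 5.27% of all genes tested did and 1.85% were lower, so a count of 0 among 8 is near that share. In the main fit, no partner's 95% interval reached the log2 fold change of *Tom1*. As that value chose *Tom1*, this is a description and no test of sharing.

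All mice were male, 7 weeks old, singly housed and homozygous for *Olfr151* GFP/GFP, a knock-in allele (*Olfr151tm26Mom*) that makes tau-GFP from an IRES in the *Olfr151* transcript, controls included. Exposed mice spent 5 h with a swab carrying 5% acetophenone, an odorant that activates this receptor, in DMSO, and control mice spent the same time with DMSO alone. Each library was a pool of 200 GFP-positive cells from 4 mice, although another field of the sample descriptions states a larger cell number. Control pools 1, 2 and 3 and exposed pools 1 and 3 were used, and exposed pool 2 was not analysed here. The labels do not say which pool was collected on which day, so p-values measure the spread between these pools, which may in part be technical.

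TOM1 is an adaptor on early endosomes. It binds ubiquitin on cargo proteins, is brought to the endosome by TOLLIP, and recruits clathrin and the motor protein myosin VI. The heterodimer of HRS (the product of *Hgs*) and STAM forms ESCRT-0, which gathers ubiquitinated membrane receptors and hands them to ESCRT-I, of which TSG101 is the ubiquitin-binding subunit. Through this route receptors are sorted into intraluminal vesicles and degraded in lysosomes, while other cargo is returned to the plasma membrane.

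*Tom1* (ENSMUSG00000042870) is a plus-strand gene of chromosome 8 (GRCm38 positions 75033705 to 75070121), with 17 merged exons of 2499 bases in sum. *Tom1l2* (ENSMUSG00000000538) and *Tom1l1* (ENSMUSG00000020541) lie on the minus strand of chromosome 11, at 60226714 to 60352905 and at 90643465 to 90688366, and *Hgs* (ENSMUSG00000025793) lies on its plus strand, at 120467635 to 120483979. The start regions of 3 genes are shown: the gene that was lower (*Tom1*), its most abundant relative (*Tom1l2*) and *Hgs*. The exposed pools of *Hgs* lay above all control pools in TMM-scaled CPM, as for 20.3% of all genes tested, but not in TPM (both measures are described below). The regions are RefSeq promoters of GRCm38.p6, from 250 bases before to 50 after the start, at chr8:75033436-75033735 (plus strand), chr11:60352856-60353155 (minus strand) and chr11:120467385-120467684 (plus strand). Capitals mark the CRE half-site TGACG, the core of the motif bound by CREB-type factors, on either strand (CGTCA is its reverse complement), and the E-box CACGTG.
Tom1: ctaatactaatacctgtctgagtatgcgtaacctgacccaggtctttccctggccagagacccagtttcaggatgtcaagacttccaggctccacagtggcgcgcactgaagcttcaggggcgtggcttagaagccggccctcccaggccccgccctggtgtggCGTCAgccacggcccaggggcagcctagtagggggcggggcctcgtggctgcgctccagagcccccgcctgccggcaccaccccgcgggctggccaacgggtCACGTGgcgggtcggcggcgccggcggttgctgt
Tom1l2: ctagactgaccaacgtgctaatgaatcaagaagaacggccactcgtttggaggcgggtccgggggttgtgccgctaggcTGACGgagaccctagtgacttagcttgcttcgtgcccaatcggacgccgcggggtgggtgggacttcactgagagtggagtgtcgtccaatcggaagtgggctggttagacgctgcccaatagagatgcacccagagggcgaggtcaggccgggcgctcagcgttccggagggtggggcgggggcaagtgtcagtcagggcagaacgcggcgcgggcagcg
Hgs: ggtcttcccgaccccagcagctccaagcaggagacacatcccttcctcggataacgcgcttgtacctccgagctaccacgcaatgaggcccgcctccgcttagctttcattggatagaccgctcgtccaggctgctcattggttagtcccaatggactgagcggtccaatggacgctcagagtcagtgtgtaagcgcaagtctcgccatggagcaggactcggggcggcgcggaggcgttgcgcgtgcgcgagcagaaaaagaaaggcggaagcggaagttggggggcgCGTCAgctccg
The half-site was present in 5 of the 10 RefSeq promoters of the 9 genes (*Tom1*, *Tom1l2*, *Myo6*, *Hgs* and *Tsg101*), against 20.8% of all 32851 promoters of this length. The E-box was present in the *Tom1* promoter alone among the 10, against 7.15% of all promoters. The full CRE TGACGTCA was in none of the 10 and in 1.79% of all. A loose AP-1 pattern, TGANTCA with any base at N, was in the *Tom1l2* promoter (as tgaatca) and in 7.81% of all. Both strands were searched, and the full CRE contains the half-site. These letters are a description of the windows.

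Reads summed to between 42780403 and 49527380 counts per library, so 1 count was worth 0.0202 to 0.0234 depth-scaled counts (CPM), and the lowest count of any of the 9 genes in any library was 829. The reads carry no molecular identifiers. All 9 mature OSN markers were detected in every library, and *Stoml3*, at 24795 to 29462 TPM (counts scaled by exon length and to a common total), had the highest mean. Their summed TPM was 68388 to 77938 in control and 56128 to 56146 in exposed pools, a ratio of means of 0.769, and that of 3 immature OSN markers was 257 to 330 and 402 to 519. Sustentacular markers summed to 112 to 314 TPM in control and 156 to 395 in exposed pools, and myeloid markers to 67.0 to 368 and 168 to 376, with *Ptprc*, *C1qa*, *C1qb*, *C1qc*, *Cx3cr1* and *Csf1r* at 0 in some libraries. Of the 12 myeloid markers, *Ptprc*, *Tyrobp* and *S100a9* were higher in both exposed pools than in all control pools. *Ptprc* had 0 to 54 counts in control against 542 and 517, *Tyrobp* 67 to 538 against 1026 and 797, and *S100a9* 45 to 181 against 398 and 249. The other myeloid markers overlapped between conditions and went both ways. Their exposed over control ratios of mean TPM were below 1 for *Cx3cr1* (0.026), *C1qc* (0.14), *C1qb* (0.19), *Aif1* (0.50) and *C1qa* (0.93). The ratios were above 1 for *Lyz2* (1.08), *Csf1r* (1.39), *Cd68* (1.52) and *S100a8* (2.48). Basal cell markers summed to 0.359 to 4.01 and 0.840 to 10.4 TPM, ensheathing glia markers to 2.55 to 5.87 and 4.65 to 4.86 TPM, and haemoglobin genes to 56.5 to 1448 and 26.5 to 60.6 TPM. In TPM, conditions were also apart for 6 of the 9 mature OSN markers (lower after exposure) and 2 of the 3 immature ones (higher). The remaining immature marker, *Dbn1*, overlapped and went the other way, with a ratio of mean TPM of 0.83. Conditions were apart as well for *Ermn* of the 5 sustentacular markers (higher) and *Hba-a1* of the 4 haemoglobin genes (lower). In CPM scaled by edgeR's TMM method, conditions were apart for 39.9% of all genes tested, 20.3% higher and 19.6% lower after exposure. The part of all these markers in the values below was not tested.

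The 3 control pools held 2958, 3169 and 3127 reads of *Tom1*, and exposed pools 1 and 3 held 829 and 1039. Per length these were 87.7, 93.2 and 93.9 TPM in control and 23.0 and 31.4 TPM in exposed pools, a mean of 91.6 ± 3.42 TPM (SD, n = 3) against 27.2 ± 5.93 TPM (SD, n = 2). The pools of each condition lay close together and the conditions were far apart. Scaled by edgeR's TMM method, *Tom1* averaged 67.3 ± 2.15 CPM (SD, n = 3) without the odorant and 22.3 ± 3.95 CPM (SD, n = 2) with it, a log2 fold change of -1.59 (SE 0.25, 95% interval -2.17 to -1.01). Of the 10054 genes tested, 363 (3.61%) had a lower log2 fold change. In bulk RNA of this kind, fewer cells that make a transcript and less transcript per cell cannot be told apart. Of the *Tom1* exon bases 89 (3.56%) are shared with *Gm45822* on the other strand, which had 11 counts in control pool 3 and 0 elsewhere, and the reads were counted without regard to strand.

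*Tom1l2*, the more abundant of the relatives, encodes an adaptor with the same domain order. It had 30.7, 57.0 and 48.2 TPM in control and 34.2 and 52.1 TPM in exposed pools, so its exposed TPM values fell inside the control range. In TMM-scaled CPM its exposed pool 3 (146) lay above the highest control pool (139). Its log2 fold change was 0.10 (SE 0.27, 95% interval -0.53 to 0.74, adjusted p = 0.870, edgeR). *Tom1l1*, also called SRCASM, is a related adaptor that binds Src-family kinases, and had the lowest level of the 9 genes. It had 26.9, 24.6 and 18.2 TPM in control and 17.5 and 19.2 TPM in exposed pools, which overlapped, with a log2 fold change of -0.18 (SE 0.27, 95% interval -0.82 to 0.45, adjusted p = 0.755, edgeR). *Tom1l1* shares 688 exon bases (8.88%) with *Cox11* on the other strand, which had 194 to 290 counts.

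The make-up of the family therefore differed between conditions. *Tom1* accounted for 60.4%, 53.3% and 58.6% of the summed TPM of the 3 genes in control pools 1, 2 and 3, and for 30.8% and 30.6% in exposed pools 1 and 3. *Tom1l2* took a mean share of 27.9% ± 6.02 (SD, n = 3) without and 48.3% ± 3.45 (SD, n = 2) with odorant exposure, and *Tom1l1* one of 14.7% ± 3.61 and 21.1% ± 3.30. The family sum averaged 160 ± 14.8 TPM (SD, n = 3) over control pools, compared with 88.7 ± 19.8 TPM (SD, n = 2) over exposed pools. Within each library, the ratio of *Tom1* to *Tom1l2* TPM was 2.85, 1.63 and 1.95 for the controls, compared with 0.671 and 0.602 after exposure. Per length, *Tom1* was thus the more abundant of the pair in every control pool and the less abundant in both exposed pools. The control order rests on exon length (2499 bases for *Tom1*, 8764 for *Tom1l2*). In TMM-scaled CPM, not divided by length, *Tom1* was below *Tom1l2* in the control pools too (68.7, 64.8 and 68.3 against 84.4, 139 and 123). These shares and ratios contain the *Tom1* values by which the gene was chosen, and they carry no test.

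**Figure D1:**
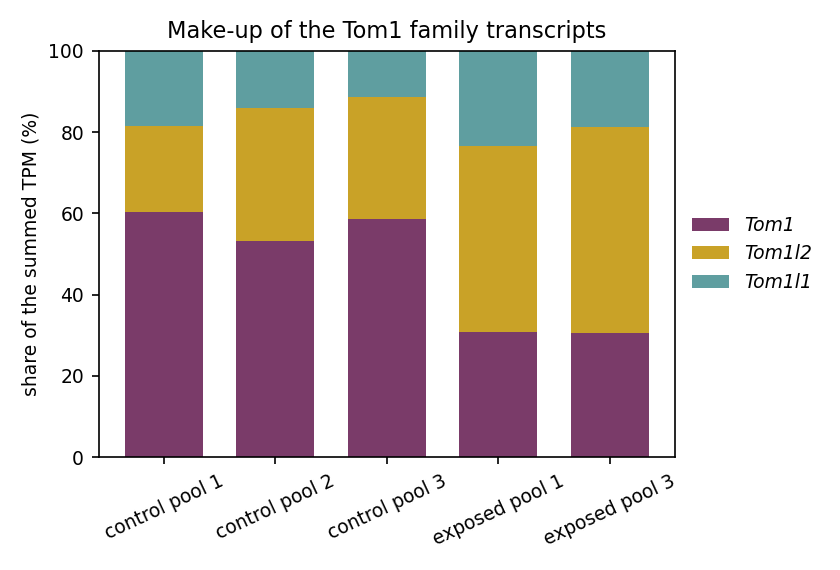
Stacked bars give the share (%) of *Tom1*, *Tom1l2* and *Tom1l1* in their summed TPM for each of the 5 pools. *Tom1* holds 53.3% to 60.4% in the control pools and 30.6% to 30.8% in the exposed pools.

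*Tollip*, whose product tethers TOM1 to endosomes through its own ubiquitin- and lipid-binding parts, was the most abundant of the 9 genes by mean TPM. It had 656, 1052 and 905 TPM in control and 598 and 666 TPM in exposed pools. The highest exposed pool lay just above the lowest control pool in TPM, and in TMM-scaled CPM the ranges also overlapped. Its log2 fold change of -0.29 (SE 0.17, 95% interval -0.68 to 0.11, adjusted p = 0.403, edgeR) was the lowest of the 8 partners. *Myo6*, the gene of the minus-end-directed actin motor that TOM1 binds, had 370, 658 and 495 TPM in control and 459 and 607 TPM in exposed pools. The exposed pools lay within the control range in TPM, while in TMM-scaled CPM exposed pool 3 (2347) lay above the highest control pool (2210). The log2 fold change of *Myo6* was 0.25 (SE 0.21, 95% interval -0.24 to 0.73, adjusted p = 0.566, edgeR).

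*Hgs* encodes the ESCRT-0 subunit that binds ubiquitin, clathrin and the endosomal lipid PI3P. It had 204, 244 and 206 TMM-scaled CPM in control and 292 and 267 CPM in exposed pools, so both exposed pools lay above all 3 control pools. Its log2 fold change of 0.36 (SE 0.15, 95% interval -0.0027 to 0.71, adjusted p = 0.264, edgeR) did not pass the test. In TPM (219, 294, 237 against 288 and 279) the conditions overlapped. *Stam* and *Stam2* encode the other ESCRT-0 subunit and are alternatives to each other in the complex. *Stam* had 45.8, 65.6 and 50.1 TPM in control and 48.8 and 47.3 TPM in exposed pools, which overlapped, with a log2 fold change of 0.011 (SE 0.18, 95% interval -0.42 to 0.44, adjusted p = 0.982, edgeR). *Stam2* had 44.9, 47.6 and 35.9 TPM in control and 33.9 and 31.1 TPM in exposed pools, with a log2 fold change of -0.23 (SE 0.22, 95% interval -0.76 to 0.30, adjusted p = 0.630, edgeR). Its exposed pools were below the control pools in TPM and overlapped them in TMM-scaled CPM. The summed TPM of the 3 ESCRT-0 genes averaged 347 ± 52.9 (SD, n = 3) over control pools, compared with 364 ± 8.94 (SD, n = 2) over exposed pools, of which *Hgs* held 72.1% ± 1.36 and 77.9% ± 0.303.

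*Tsg101*, the ESCRT-I subunit that receives cargo from HRS, had 109, 120 and 120 TPM in control and 111 and 106 TPM in exposed pools. The pools overlapped and were close to each other. Its log2 fold change was 0.071 (SE 0.17, 95% interval -0.34 to 0.48, adjusted p = 0.863, edgeR).

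**Figure D2:**
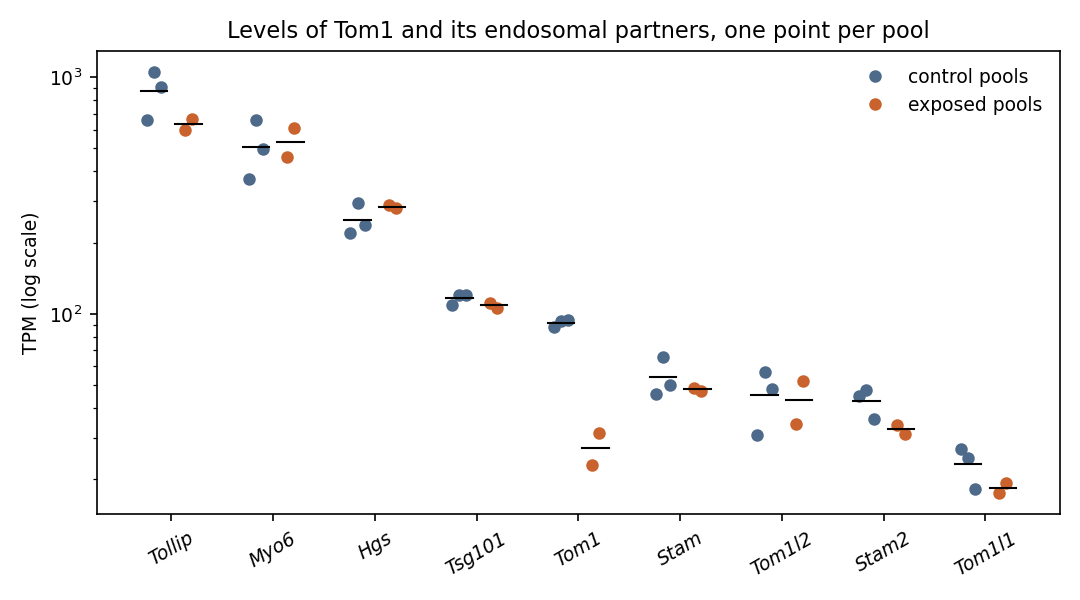
Points give the TPM (log axis) of the 9 genes in each control pool (blue) and exposed pool (orange), and bars the mean of each condition. *Tom1* lies at 87.7 to 93.9 TPM in control and at 23.0 to 31.4 TPM in exposed pools, while the points of *Myo6*, *Stam* and *Tom1l2* interleave.

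Ordered by mean TPM in control pools, the genes ran *Tollip*, *Myo6*, *Hgs*, *Tsg101*, *Tom1*, *Stam*, *Tom1l2*, *Stam2* and *Tom1l1*. Of neighbours in this order, *Tollip* and *Myo6*, *Stam* and *Tom1l2*, and *Tom1l2* and *Stam2* had overlapping ranges and the others did not. In exposed pools *Tom1* stood in position 8 in place of 5, between *Stam2*, whose range it overlapped, and *Tom1l1*, and the other 8 genes kept their order among themselves.

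EdgeR's quasi-likelihood test called 0 of the 8 partners (Benjamini-Hochberg adjusted p under 0.1 and absolute log2 fold change above 0.5). With edgeR, 0 had an unadjusted p under 0.05, and adjusted p ranged from 0.264 to 0.982. DESeq2 also called 0 of the 8, with 1 (*Hgs*, adjusted p = 0.161) at an unadjusted p under 0.05, while it called 14.9% of all genes tested, 7.65% lower and 7.21% higher. Of all 10054 genes tested, edgeR called 5.27%, with 1.85% lower and 3.42% higher after exposure, and 19.1% had an unadjusted p under 0.05. The median log2 fold change of the partners was 0.041, with 3 below 0 and 5 above, beside -0.026 over all genes tested. Conditions were apart in TMM-scaled CPM for *Hgs* alone among the partners, against 39.9% of all genes tested, 20.3% with the exposed pools higher and 19.6% with them lower. All 9 genes passed the filter, which asked for 140 counts or more in all libraries of one condition or the other. With ERCC spike-in scaling the medians were -0.21 for the partners and -0.23 for all genes, so signs near 0 depend on the scaling.

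The intervals set what these 5 libraries leave possible under TMM scaling. Across the 8 partners the lowest bound was -0.82 (*Tom1l1*) and the highest 0.74 (*Tom1l2*), so 0 of the 8 intervals reached -1.59. That value chose *Tom1*, and 3.61% of all genes tested had a lower log2 fold change, so most genes lie above it. Only the intervals of *Stam* and *Tsg101* lay wholly within a log2 fold change of 0.5 in either direction, and the other 6 intervals include changes larger than that in at least one direction. With ERCC spike-in scaling the SE of the *Tom1* log2 fold change was 0.81 in place of 0.25, so the width of an interval depends on the scaling. Partner intervals under that scaling are not given here.

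**Figure D3:**
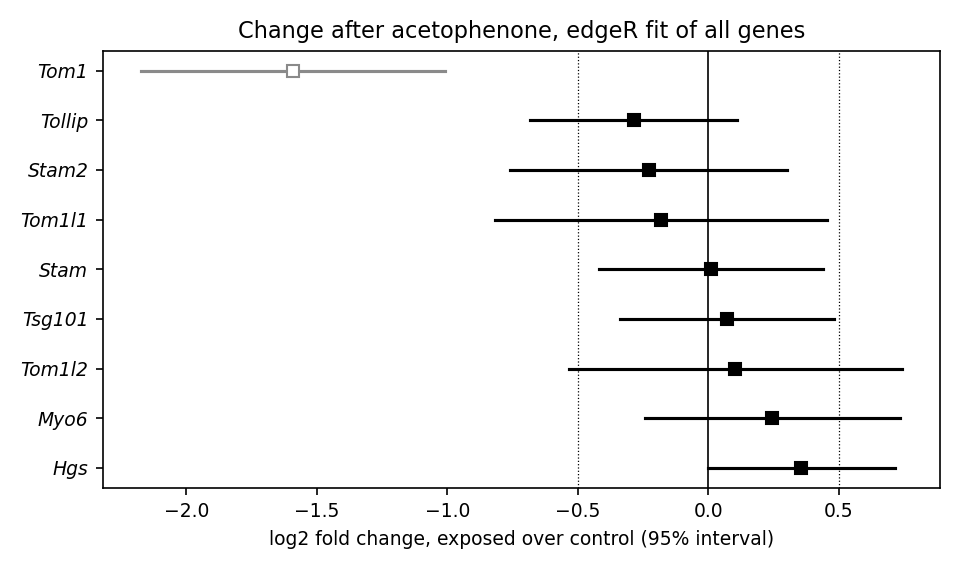
Squares give the log2 fold change (exposed over control) of the 9 genes and lines its 95% interval, with dotted lines at the call threshold of 0.5. *Tom1* (open square, the gene chosen by this contrast) stands at -1.59, and the 8 partner intervals lie between -0.82 and 0.74.

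The 5 genes whose pattern over the 5 libraries was most like that of *Tom1* were not among its 8 partners. As only 5 of 10053 other genes are named, this says nothing particular about the partners. Likeness was the root mean square difference of log2 CPM, centred on the control mean, so that 0 is an identical pattern. The nearest were *St3gal4*, a sialyltransferase gene (distance 0.0553), *Cacnb3*, which encodes a beta subunit of voltage-gated calcium channels (0.0691), *Cfap45*, a cilium and flagellum protein gene (0.0856), *Aph1c*, a gamma-secretase subunit gene (0.106), and *Epb41l4b*, a FERM domain protein gene (0.108). *St3gal4* had 8720, 9166 and 9006 counts in control and 2432 and 2780 in exposed pools, and *Cacnb3* had 47530, 56079 and 50363 against 13373 and 16153. Both were lowest in exposed pool 1, as *Tom1* was. The 8 partners lay at 0.867 (*Tollip*) to 1.26 (*Hgs*), at positions 2664 to 7118 of the 10053 other genes. These distances use the values that chose *Tom1* and carry no test.

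**Figure D4:**
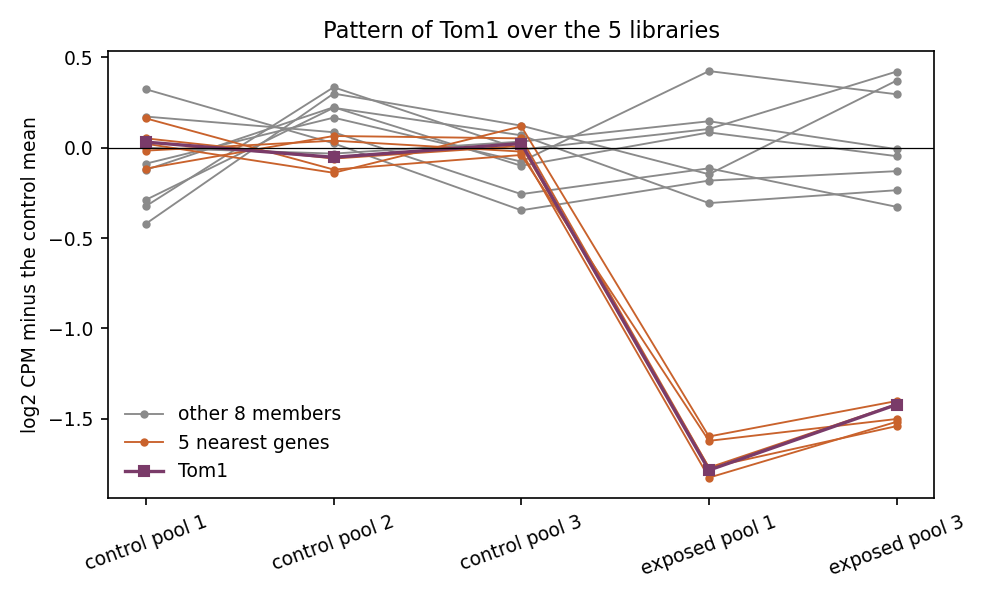
Lines give log2 CPM minus the control mean in each of the 5 pools for *Tom1* (purple), the 5 genes nearest to it (orange) and the other 8 members (grey). The orange lines follow *Tom1* and the grey lines stay around 0 in the exposed pools.

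The tested genes around *Tom1* on chromosome 8 that are described here did not show its pattern together. *Hmgxb4*, 1.73 kb before *Tom1*, had 641, 528 and 454 counts in control and 537 and 250 in exposed pools, with a log2 fold change of -0.34 (SE 0.48, adjusted p = 0.737, edgeR). *Hmox1*, the haem oxygenase gene 23.5 kb after it, had 2782, 3492 and 2757 counts against 3576 and 2772 (log2 fold change 0.21, SE 0.21, adjusted p = 0.645, edgeR). Both overlapped between conditions. *Mcm5*, a replication helicase gene 39.5 kb after *Tom1*, had 527, 536 and 324 counts in control and 250 and 108 in exposed pools, which did not overlap. Its log2 fold change of -1.25 (SE 0.56, 95% interval -2.57 to 0.077, adjusted p = 0.286, edgeR) did not pass the test. Farther away, *Sin3b*, a corepressor gene 2276 kb before *Tom1*, rose (log2 fold change 0.84, SE 0.15, adjusted p = 0.0416, edgeR), and *Prmt9* (0.025, adjusted p = 0.972) was not called by edgeR.

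Around the 9 genes, 88 further genes of endosomal sorting in 8 lists were examined, and 82 passed the count filter. Of these, 4 (4.88%) were called higher and 0 lower by edgeR. Of all genes tested, 5.27% were called, 3.42% higher and 1.85% lower. An unadjusted p under 0.05 was found for 17 of the 82, against 19.1% of all genes tested. DESeq2 called 8 higher and 1 lower, against 14.9% of all genes tested. The median log2 fold change of the 82 was 0.14, and the conditions did not overlap for 33 of them (40.2%, against 39.9% of all genes tested). No gene of the lists had a log2 fold change as low as that of *Tom1*, the value that chose it, and 3.61% of all genes tested had a lower one. The lowest of the lists was -1.26 (*Nedd4l*, a ubiquitin ligase gene, named after its value was seen, adjusted p = 0.118, edgeR). *Nedd4l* had 1412, 1670 and 1006 counts in control and 499 and 537 in exposed pools, which did not overlap, and it was the gene called lower by DESeq2 (adjusted p = 0.00869).

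The 4 genes called by edgeR are described one by one. Their share (4.88%) was near that of all genes tested (5.27%, either direction), so it marks out no step of sorting. *Ap2a2*, a large subunit of the AP-2 adaptor that links clathrin to cargo, had 8345, 9757 and 9301 counts in control and 13806 and 14305 in exposed pools (log2 fold change 0.75, SE 0.13, adjusted p = 0.0358, edgeR). *Cltc*, the clathrin heavy chain gene, had 18502, 28128 and 19150 counts against 32353 and 38782 (0.84, SE 0.18, adjusted p = 0.0706, edgeR). *Ndfip1*, an adaptor that recruits and activates NEDD4-family ubiquitin ligases, had 63328, 63053 and 62129 counts against 102761 and 81298 (0.68, SE 0.13, adjusted p = 0.0517, edgeR). The exposed pools lay above the control pools for these 3 genes, as they did for *Chmp1b*. In TMM-scaled CPM this held for 20.3% of all genes tested, and the genes described here were picked because they were called higher. *Chmp1b*, an ESCRT-III filament subunit gene, had 200, 218 and 257 counts in control and 1038 and 477 in exposed pools (1.87, SE 0.46, adjusted p = 0.0960, edgeR), with the exposed pools apart from each other. Leaving out a pool changed the calls here as over all genes. Of the 82 genes, 0 were called without exposed pool 1 (against 1.07% of all genes tested), 0 without exposed pool 3 (1.81%), 2 without control pool 1 (4.81%), 1 without control pool 2 (2.20%) and 3, *Nedd4l* lower among them, without control pool 3 (7.56%).

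By list, 2 of 15 clathrin and endocytic adaptor genes rose and the list's median log2 fold change was 0.32, while the abundant *Clta* (0.024) and *Ap2s1* (-0.0028) were not called. Among the ubiquitin ligases and deubiquitinases 1 of 13 rose (median 0.22), with *Wwp2* at -0.18 and *Usp8*, which deubiquitinates ESCRT-0 cargo, at 0.31. Of 15 ESCRT-III and disassembly genes 1 rose (median 0.085), with *Chmp2a* at 0.074, *Chmp5* at 0.23 and the ATPase gene *Vps4a* at 0.011. In the other lists edgeR called none: 9 ESCRT-I and ESCRT-II genes (median 0.20, with 2 at an unadjusted p under 0.05), 11 endosomal Rab and PI3P genes (0.25, with 3), 3 GGA adaptors (-0.18, with 0), 10 retromer and sorting nexin genes (-0.18, with 0) and 6 other myosin VI and TOM1 partners (-0.44, with 2). DESeq2 called further genes higher, named after their values were seen: *Vps37a* (log2 fold change 0.69, adjusted p = 0.0224, DESeq2) and *Ubap1* (0.66, adjusted p = 0.0290, DESeq2) of ESCRT-I, *Eea1*, an early endosome tether gene (1.11, adjusted p = 0.0601, DESeq2), and *Ist1* of the ESCRT-III list (0.87, adjusted p = 0.0416, DESeq2), the log2 fold changes being those of edgeR.

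The last of these lists stood lowest by its median. It holds *Gipc1*, a myosin VI cargo adaptor gene, with 3301, 3882 and 4212 counts in control and 1973 and 2640 in exposed pools, and *Calcoco1*, with 3123, 4577 and 4789 counts against 2646 and 2246. Both were lower in each exposed pool than in every control pool, which held for 19.6% of all genes tested. Their log2 fold changes of -0.58 (SE 0.23, adjusted p = 0.237, edgeR) and -0.63 (SE 0.23, adjusted p = 0.211, edgeR) did not pass the test. *Tax1bp1*, an autophagy receptor gene whose product binds myosin VI, was at 0.26 (adjusted p = 0.318, edgeR), with both exposed pools above the control pools, which held for 20.3% of all genes tested.

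Of the named genes of the remaining lists, *Vps28*, *Vps37c* and *Vps36* had log2 fold changes of -0.31, 0.36 and 0.37. *Rab5a*, *Rab7* and *Rab11a*, which mark early, late and recycling endosomes, were at -0.19, 0.48 and -0.016. The exposed pools of *Rab5a* were far apart, at 36.2 and 139 CPM around a control mean of 99.8, and its log2 fold change was 0.46 without exposed pool 1 and -1.49 without exposed pool 3. *Gga1*, *Gga2* and *Gga3*, adaptors with the same VHS and GAT domains as TOM1, were at 0.19, -0.18 and -0.35. *Snx2*, *Snx3* and *Snx6* were at -0.31, -0.13 and -0.42. None of these 12 genes was called by edgeR, which follows from their lists, as it called none there. Of all genes tested, 5.27% were called.

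**Figure D5:**
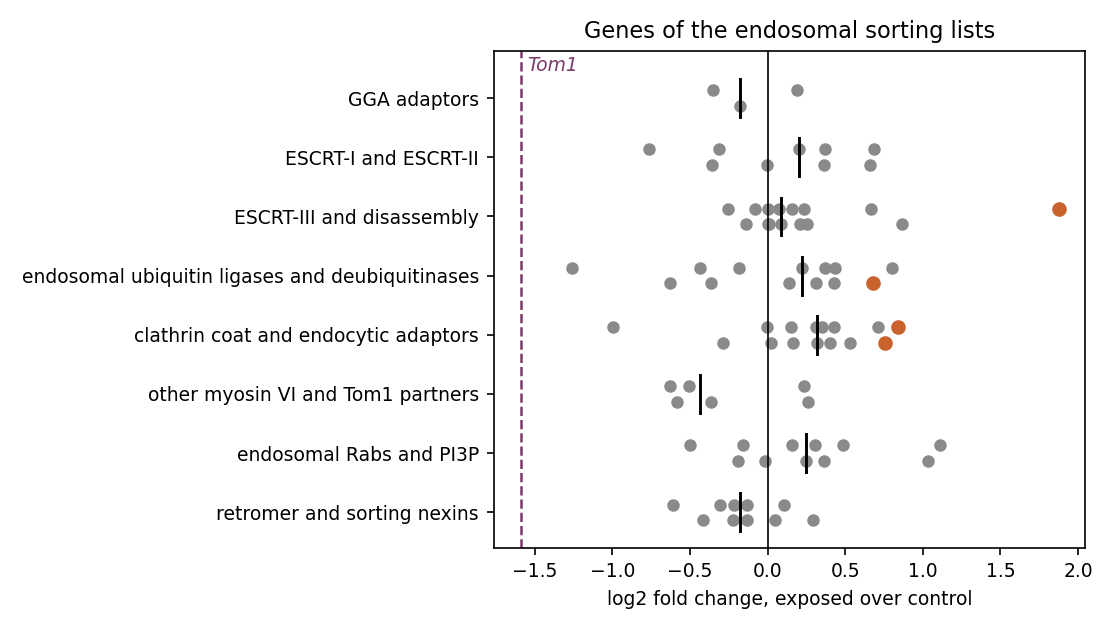
Each point is the log2 fold change (exposed over control) of 1 of 82 tested genes in 8 lists, with the list's median as a vertical bar, genes called higher in orange and *Tom1* as a dashed line at -1.59. The 4 called genes lie to the right of 0, and no point lies as far to the left as *Tom1*, which was chosen by this value. Of all genes tested, 3.61% had a lower log2 fold change than *Tom1*.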

How the data were processed

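RNA of sorted *Olfr151* neurons was amplified by SMARTer chemistry (12 cycles) and read in single 50-base reads. The authors mapped the reads with STAR 2.7.0a to GRCm38 and deposited raw counts per gene (featureCounts 1.6.3, Ensembl annotation, no strand, no multi-mapping reads). Their processing notes also list DESeq2 1.30.1 and R 4.0.3.

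Samples were grouped by their labels. Counts were scaled by TMM and tested in R 4.3.3 with edgeR 4.0.16 (robust glmQLFit, glmQLFTest) over the 10054 genes that reached 140 counts in all libraries of one condition or the other, 140 being where the distribution of log2 counts had its minimum below the main mode. Adjusted p-values cover all of these genes. The prior count for log2 CPM was 2. TPM was computed from counts and exon lengths in Python 3.11.15 with pandas 2.3.3, and figures were drawn with matplotlib 3.10.9. Symbols came from GENCODE M21, for 55144 of 55411 genes. Alternatives were DESeq2 1.42.0, other scalings and filters, a pool-number block and leaving out each library. The fit was tested on simulated counts.

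The 9 genes and the lists were chosen with earlier results of these data known. Named are the 9 genes, the 3 nearest tested genes on each side of *Tom1*, the 5 genes most like it, and of each list the called genes and the 3 with the highest TPM. Exceptions are stated, and some items that these rules or lists select are not reported here. Totals of 42780403 to 49527380 counts make counting error small at these levels, and with 2 exposed pools their spread rests on 1 difference per gene.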

Additional observations from a re-analysis of the deposited data

How the results depend on the processing

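Over 13 alternatives, 0 of the 8 partners were called in any of them. Their lowest adjusted p was 0.161 (*Hgs*, DESeq2) and their log2 fold changes ranged from -0.56 to 0.45. *Tollip*, *Hgs* and *Stam2* kept their sign throughout and the other 5 did not. *Tom1* stayed between -1.81 and -1.43. It was chosen by this contrast, so the counts of members called below, which count no gene but *Tom1*, are a description and no support. With each library left out in turn, *Tom1* ranged from -1.81 to -1.43, members called from 0 to 1, listed sorting genes called from 0 to 3 and all genes called from 112 to 777, beside 530. All genes called numbered 280 at an adjusted p under 0.05, 143 with ERCC scaling, 1494 with DESeq2's Wald test and 240 with filterByExpr. Listed sorting genes called, 4 in the report, numbered 1 at an adjusted p under 0.05, 0 with ERCC scaling, 9 with DESeq2 (8 higher, 1 lower) and 1 with filterByExpr. ERCC scaling moved the median of all genes to -0.23 and that of the partners to -0.21, gave 0 members called and left *Tom1* at -1.74. The SE of *Tom1* was then 0.81, beside 0.25 in the main fit. Calls split 344 higher to 186 lower, and 725 to 769 with DESeq2, 348 to 429 without control pool 3 and 93 to 19 without exposed pool 1. Whether pool numbers pair the samples could not be decided. With 2 exposed pools, their deviations from the mean mirror each other, so every correlation recurs with the opposite sign. Same-numbered deviations correlated at 0.028 and -0.072, and different-numbered ones at values from -0.116 to 0.116. The replicate block gave 11 genes, 0 members and 0 sorting genes. The cause of these differences was not tested. The 9 genes had 829 counts or more in each library, and the exposed spread rests on 2 pools.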
